A study of Mus musculus with 8 samples.

Results

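The 33 genes described here act in the synthesis of sterols and fatty acids or in the response to sterols through the liver X receptors (LXR). They were chosen by gene symbol, and all 33 were present among the 23143 genes of the count table. By role they are 18 enzymes of sterol synthesis, 5 genes that control the sterol regulatory element binding proteins (SREBP), 2 genes of sterol transfer and esterification, 5 LXR and efflux genes, and 3 genes of fatty acid synthesis. The cells were RAW264.7, an established line of mouse macrophages, and their RNA was sequenced without stimulation (0 min) and at 7 times after lipopolysaccharide (LPS) of E. coli was added at 100 ng/ml, every 15 min up to 90 min and once more at 120 min. All 8 libraries come from this one unmodified line. With a single library per time, differences between times could not be checked against replicates. The labels give total RNA as the molecule and cytoplasmic as the fraction, whereas the methods name no fractionation for these libraries.

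Cholesterol is made from acetyl-CoA through mevalonate, isoprenoid diphosphates, squalene and lanosterol. When sterols in the endoplasmic reticulum are low, SCAP escorts the SREBPs to the Golgi, where they are cleaved and become active transcription factors for the enzymes of this pathway and for Insig1, and when sterols are high, INSIG proteins hold SCAP and the SREBPs back. Oxidised sterols activate LXR, which raises the transcription of cholesterol exporters such as Abca1 and Abcg1 and of the ubiquitin ligase gene Mylip.

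The total counts ranged from 100250892 to 159077286 per library, and counts were divided by median-of-ratios size factors to give the normalized counts below. The ribosomal RNA precursor Rn45s took 8.18% to 9.11% of the counts at 0, 30, 60 and 120 min and 12.96% to 20.53% at 15, 45, 75 and 90 min, and its part in the values below was tested only by the alternatives named with them. All 6 macrophage markers measured were abundant, from 5528 counts of Emr1 upward, while the 14 markers of T cells, B cells, fibroblasts, epithelium and hepatocytes had at most 16 counts in any library, and Col1a1, Col1a2, Epcam and Cd3g had 0. The LPS-responsive Il1b went from 45 counts at 0 min to 133379 at 120 min.

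Promoters of 4 members are shown because these genes had the 4 highest ratios to 0 min of all members at 120 min. Each runs 5′ to 3′ in the direction of the gene, from 250 bases before to 50 bases after the start in RefSeq (GRCm38.p6). For Hmgcs1, a check of the direction against transcripts found no match either way. In the first 3, capitals mark the box CCAAT on either strand (ATTGG where it lies on the opposite strand), which the factor NF-Y binds, and the sterol regulatory element-like motif TCACNCCAC. In Abca1, capitals mark a pair of half-sites that resemble AGGTCA with 4 bases between them (DR4, the arrangement LXR binds with its partner RXR), found on the strand opposite to the gene with up to 3 mismatches in all. The promoters of Hmgcs1 and Insig1 also hold such a pair, 158 and 115 bases before the start, which is not in capitals.
Hmgcs1, chr13:119690101-119690400, plus strand: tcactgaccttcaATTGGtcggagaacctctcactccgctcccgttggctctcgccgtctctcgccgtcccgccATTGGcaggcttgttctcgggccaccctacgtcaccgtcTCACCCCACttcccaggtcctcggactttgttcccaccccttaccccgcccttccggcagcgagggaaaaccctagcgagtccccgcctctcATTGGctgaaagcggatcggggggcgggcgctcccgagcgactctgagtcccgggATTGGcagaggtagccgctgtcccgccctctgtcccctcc
Insig1, chr5:28071162-28071461, plus strand: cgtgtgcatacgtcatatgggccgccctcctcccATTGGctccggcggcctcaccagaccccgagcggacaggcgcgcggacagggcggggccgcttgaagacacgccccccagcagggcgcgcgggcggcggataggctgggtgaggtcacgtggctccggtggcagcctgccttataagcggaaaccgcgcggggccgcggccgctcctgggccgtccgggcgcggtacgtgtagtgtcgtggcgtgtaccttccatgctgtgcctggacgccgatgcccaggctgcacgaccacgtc
Hsd17b7, chr1:169969156-169969455, minus strand: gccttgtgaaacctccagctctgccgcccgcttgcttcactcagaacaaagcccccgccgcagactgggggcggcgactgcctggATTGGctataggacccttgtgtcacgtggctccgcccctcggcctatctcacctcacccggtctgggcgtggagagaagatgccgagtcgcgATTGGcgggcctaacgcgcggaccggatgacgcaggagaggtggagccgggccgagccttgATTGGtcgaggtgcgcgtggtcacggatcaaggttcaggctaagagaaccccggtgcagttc
Abca1, chr4:53159846-53160145, minus strand: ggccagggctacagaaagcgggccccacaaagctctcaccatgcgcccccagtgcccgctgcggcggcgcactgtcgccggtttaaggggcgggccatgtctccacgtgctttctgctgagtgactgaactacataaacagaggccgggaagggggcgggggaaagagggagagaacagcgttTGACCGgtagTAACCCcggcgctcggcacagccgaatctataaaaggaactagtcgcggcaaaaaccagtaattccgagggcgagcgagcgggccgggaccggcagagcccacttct

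Promoter sequences were matched for 26 members, with 35 promoters in all. Fdps, Fdft1, Sqle, Stard4, Abcg1, Scd1 and Scd2 had no entry. CCAAT was found on 1 strand or the other in 22 of the 35 promoters (62.9%), against 37.4% of all 32851 promoters of the table. Among the enzymes of sterol synthesis it was found in 14 of 18 promoters, which belong to 14 of the 15 enzymes with an entry, all but Acat2. The TCACNCCAC motif was found in 1 of the 35 promoters, that of Hmgcs1, 137 bases before the start, against 1.24% of all promoters. A DR4 with up to 2 mismatches was found in 1 member promoter, of Dhcr7, against 3.02% of all, and with up to 3 mismatches, a limit chosen after the data were seen, in 11 of 35 against 21.9% of all. The member promoters had a median GC content of 62.3%, against 52.7% over all promoters. These matches are descriptions of the letters and were not tested.

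Before LPS the members differed widely in level per length, measured as rpkm (reads per 1000 unique 58-base windows of the transcripts and per 1000000 counts of the library, with exact Poisson 95% intervals for counting error only). Fdps, which makes farnesyl diphosphate, stood highest at 259 rpkm (256 to 261), followed by the stearoyl-CoA desaturase gene Scd2 at 176 rpkm (175 to 177). Insig1 (48.0 rpkm) and Sqle (47.2 rpkm), the gene of squalene epoxidase, came next. The lowest levels were those of the cholesterol exporter Abca1 at 1.97 rpkm (1.89 to 2.04) and of Tm7sf2, a sterol reductase gene, at 1.30 rpkm (1.14 to 1.47). The LXR genes Nr1h2 (LXR beta) and Nr1h3 (LXR alpha) were at 17.5 and 4.21 rpkm. When the longest annotated transcript gave the length, the order at the top turned, with Scd2 at 169 rpkm above Fdps at 125 rpkm, and Sqle was at 28.5 rpkm, below Insig1 (47.0 rpkm), Cyp51 (40.9 rpkm), Fasn (33.5 rpkm) and Idi1 (31.1 rpkm), among others. Acat2 was then at 22.5 in place of 41.4 rpkm and Tm7sf2 at 0.594 rpkm, while Abca1 was at 1.95 rpkm. Acat2 shares windows with other genes, and 1223 of its 2193 windows were unique to it.

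**Figure D1:**
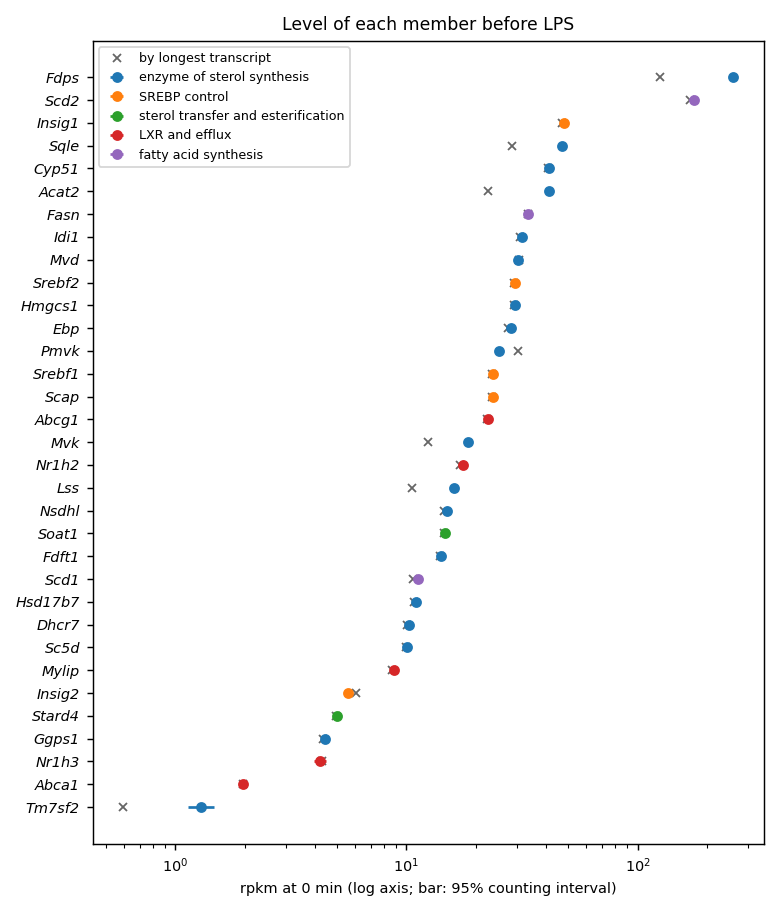
Level of each of the 33 members at 0 min in rpkm on a log axis, coloured by role, with 95% counting intervals as bars and the value by the longest annotated transcript as a cross. Fdps (259 rpkm) and Scd2 (176 rpkm) stand above the other members, in the opposite order by the longest transcript, and Abca1 (1.97 rpkm) and Tm7sf2 (1.30 rpkm) are lowest.

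Each LPS library was compared with the 0 min library. A gene was called where its log2 ratio lay beyond 0.5 and the unadjusted p of an exact negative binomial test of the 2 libraries was under 0.05, with the dispersion taken from all 8 libraries treated as replicates, after the study's method. Such a call compares 2 libraries, not 2 conditions. The dispersion depended on the mean count alone, so for well-counted genes the test worked as a limit on the ratio. Among members, Sc5d was called at 75 min with a log2 ratio of 0.695, and Scd2 was not called at 90 min with -0.682. The paper states that a dispersion of this kind errs towards too much variance, not too little. In bulk RNA, fewer cells with a transcript and less of it per cell cannot be told apart. All 33 members had a mean normalized count of at least 10, as had 12166 of the 23143 genes. At 15 min no member was called in either direction, where 0.362% of the 12166 genes were called higher and 0.173% lower. At 30 min 1 member, Insig1, was higher (1.45% of all genes) and 0 were lower (0.230% of all genes). At 45 min Insig1, Hmgcs1 and Stard4 were higher (9.09% of members against 4.69% of all genes) and no member was lower (1.90% of all genes). At 60 min 6 members (18.2%) were higher and 1 was lower, against 4.22% and 3.0% of all genes. At 75 min 9 were higher and 1 lower, against 6.21% and 4.56%, and at 90 min 8 were higher and 1 lower, against 7.23% and 5.75%. At 120 min 7 members (21.2%) were higher and 3 (9.09%) were lower, against 9.44% and 8.58% of all genes, so the share of members called lower was near that of all genes. Over the 7 times, 13 of the 33 members were called at least once, as were 23.1% of all genes, and 20 members were called at no time. With Benjamini-Hochberg adjustment of the pair test, the calls that stood were those of Hmgcs1 and Insig1 at 60 min, and of Hmgcs1, Hsd17b7, Insig1, Abca1 and Abcg1 at 120 min. The numbers of genes called higher and lower at 120 min were 1148 and 1044, and 635 and 1243 with total counts as the scale.

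**Figure D2:**
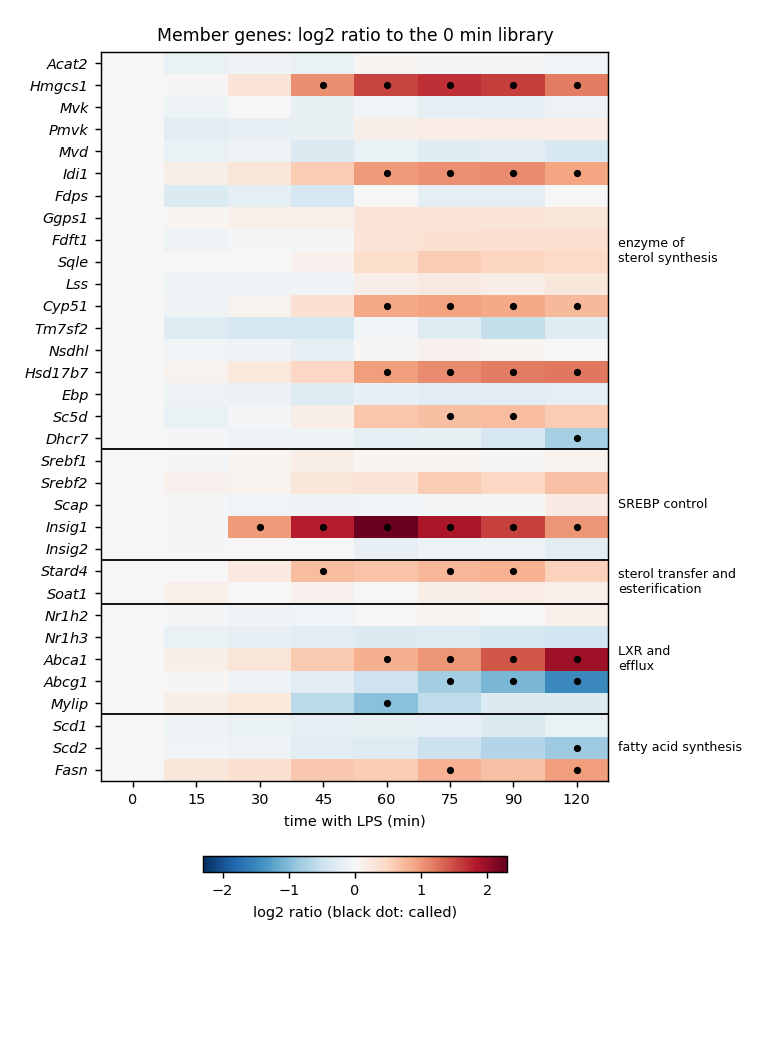
Log2 ratio of each member (rows, grouped by role) to the 0 min library at each time with LPS (columns, in min), with a black dot where the library pair was called. The highest value is that of Insig1 at 60 min (2.26) and the lowest that of Abcg1 at 120 min (-1.48), and most rows of the sterol synthesis enzymes have no dot.

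A slope over time was also fitted across the 8 libraries with edgeR's quasi-likelihood test, which has 6 residual degrees of freedom. Its p-values were Benjamini-Hochberg adjusted over all 12166 genes. The standard errors and p-values of the slopes rest on the scatter of single libraries about a straight line, not on a spread between replicates. A course that bends therefore has a wider error. By this test 14 of the 33 members (42.4%) rose with time and 6 (18.2%) fell, against 23.7% of all genes that rose and 23.7% that fell. The median slope of the members was 0.07 on the log2 scale per hour, and that of all genes tested was -0.002. With total counts as the scale, 9 members rose and 8 fell, and the split of all genes moved from 2886 up and 2881 down to 1203 up and 4466 down. With the 0, 30, 60 and 120 min libraries alone, in which the Rn45s share was low, 4 members rose (Hsd17b7, Srebf2, Abca1 and Fasn) and 4 fell (Mvd, Dhcr7, Abcg1 and Scd2). In that fit 1518 of the 12294 genes tested rose and 1059 fell, so the share of members that rose was near that of all genes. Total counts lower the log2 ratios of all genes alike by 0.10 at 60 min and 0.20 at 120 min.

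Among the 18 enzymes of sterol synthesis, 5 were called higher at 1 or more times and 1 lower, while 23.1% of all genes were called at least once in either direction. The other 12 enzymes were called at no time. Hmgcs1, Idi1, Cyp51 and Hsd17b7 were higher at both 60 and 120 min, and Dhcr7 was lower at 120 min. Thus 22.2% of the enzymes were higher at each of these times, against 4.22% and 9.44% of all genes. At 120 min 5.56% of the enzymes were lower, against 8.58% of all genes. Over the 18 enzymes the median log2 ratio was 0.140 at 60 min and 0.215 at 120 min, beside medians of -0.003 and -0.01 over all genes tested. These medians were 0.045 and 0.013 with total counts as the scale and 0.04 and 0.022 with total counts without Rn45s. A change of scale shifts all genes alike, by -0.095 and -0.202 with total counts and by -0.1 and -0.194 without Rn45s. The distance of the enzymes from the median of all genes is therefore unchanged. With either scale 2 enzymes in place of 4 were called higher at 120 min, where 635 and 707 in place of 1148 of all genes were called higher. By slope, 10 enzymes rose (55.6%) and 2 fell (11.1%), against 23.7% of all genes in each direction.

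Hmgcs1 (chr13:119690351-119708260) encodes HMG-CoA synthase, an early enzyme on the way to mevalonate. In the order of time (0, 15, 30, 45, 60, 75, 90, 120 min), which all such series below follow, its normalized counts were 11292, 11566, 13866, 23646, 33163, 36385, 34085 and 25579. The 4 libraries from 60 to 120 min were all above the 4 earlier ones, and 75 min was the highest. The ratio to 0 min was 2.94 at 60 min (95% counting interval 2.879 to 2.996), 3.22 at 75 min (3.16 to 3.29) and 2.27 at 120 min (2.22 to 2.31), and the 120 min library was at 0.703 of the 75 min library (0.692 to 0.715). Hmgcs1 rose over time by 0.91 ± 0.24 log2 per hour (SE; quasi-likelihood test in edgeR, adjusted p = 0.0149), and this call was lost without the 0 min or the 15 min library. The call was also lost with the 0, 30, 60 and 120 min libraries alone.

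Idi1 (chr13:8885606-8892396), the isomerase of isopentenyl diphosphate, had normalized counts of 10554, 11643, 12875, 15878, 20887, 21972, 22290 and 19856 from 0 to 120 min. It was highest at 90 min, with a ratio to 0 min of 2.11 (2.06 to 2.16), and still 1.88 (1.84 to 1.92) at 120 min. Cyp51 (chr5:4080674-4104697), which demethylates lanosterol, had 18012, 17043, 18941, 22850, 33268, 34026, 33121 and 30354. Its ratio was 1.85 (1.82 to 1.88) at 60 min and 1.69 (1.66 to 1.71) at 120 min, and its largest step between neighbouring libraries was from 45 to 60 min. Both rose by slope, Idi1 by 0.59 ± 0.12 and Cyp51 by 0.56 ± 0.13 log2 per hour (edgeR, adjusted p = 0.00339 and 0.00652). Both slopes were lost with the 0, 30, 60 and 120 min libraries alone. The pair calls of both genes at 120 min were lost with total counts as the scale, with or without Rn45s. The pair call of Cyp51 at 60 min was lost with total counts, and that at 120 min also with the 0, 30, 60 and 120 min libraries alone.

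Hsd17b7 (chr1:169949535-169969242), a sterol ketone reductase gene, differed from these in that its highest library was the last. Its normalized counts were 5591, 5887, 6577, 7798, 10850, 11834, 12568 and 12958, each library higher than the one before. The ratio to 0 min was 1.94 (1.88 to 2.00) at 60 min and 2.32 (2.25 to 2.39) at 120 min. Its slope of 0.73 ± 0.09 log2 per hour had an adjusted p of 0.000308 in edgeR, the lowest of the 18 enzymes. Sc5d (chr9:42251592-42264300), the sterol desaturase gene, was called at 75 and 90 min only, with ratios of 1.62 (1.56 to 1.68) and 1.63 (1.58 to 1.69). Its log2 ratios of 0.64 at 60 min and 0.58 at 120 min lay beyond the limit without passing the test. By slope Sc5d rose by 0.466 ± 0.105 log2 per hour (edgeR, adjusted p = 0.00647), a call lost with the 0, 30, 60 and 120 min libraries alone.

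Dhcr7 (chr7:143823167-143848410), whose product reduces 7-dehydrocholesterol to cholesterol, was lower. Its normalized counts were 3160, 3088, 2924, 2939, 2721, 2797, 2429 and 1852, with the lowest value in the last library. The ratio to 0 min was 0.586 (0.556 to 0.618) at 120 min, and Dhcr7 fell over time by 0.34 on the log2 scale per hour (SE 0.06; edgeR, adjusted p = 0.00223). The call at 120 min was lost with the 0, 30, 60 and 120 min libraries alone. Mvd (chr8:122433596-122443422), the mevalonate diphosphate decarboxylase gene, also fell by slope, by 0.15 log2 per hour (SE 0.04; edgeR, adjusted p = 0.017), from 6325 normalized counts at 0 min to 4902 at 120 min, with no call at any time. The slope of Mvd was lost without the 0 min or the 120 min library.

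Sqle (chr15:59315092-59331193), whose product adds the oxygen to squalene, was not called at any time. Its normalized counts were 14282, 14398, 14423, 15314, 18905, 21226, 20102 and 19374. The libraries from 60 min onward were all above the earlier ones, at 1.32 (1.30 to 1.35) times the 0 min value at 60 min and 1.49 (1.45 to 1.52) times at 75 min. Sqle rose by slope, by 0.32 ± 0.07 log2 per hour (edgeR, adjusted p = 0.00566), a call that was lost with the 0, 30, 60 and 120 min libraries alone. Pmvk (phosphomevalonate kinase), Ggps1 (the branch to geranylgeranyl diphosphate), Fdft1 (squalene synthase) and Lss (lanosterol synthase) likewise rose by slope without a call at any time, with slopes from 0.16 (Ggps1) to 0.28 (Fdft1). With total counts as the scale, or with the 0, 30, 60 and 120 min libraries alone, the slopes of these 4 were no longer called. That of Pmvk was also lost with TMM factors, with the Rn45s share as a covariate, and without the 15, 30, 75, 90 or 120 min library. That of Lss was also lost without the 120 min library. Acat2, Mvk, Fdps, Tm7sf2, Nsdhl and Ebp passed neither test. Of these, Fdps had 41239, 35817, 41393 and 41207 normalized counts in the 0, 30, 60 and 120 min libraries. It had 32652, 31677, 35389 and 35833 in the 15, 45, 75 and 90 min libraries, which are the 4 with the high share of Rn45s. The 30 min value (35817) lay just below the 90 min value (35833), and a link of Fdps with the Rn45s share was not tested.

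**Figure D3:**
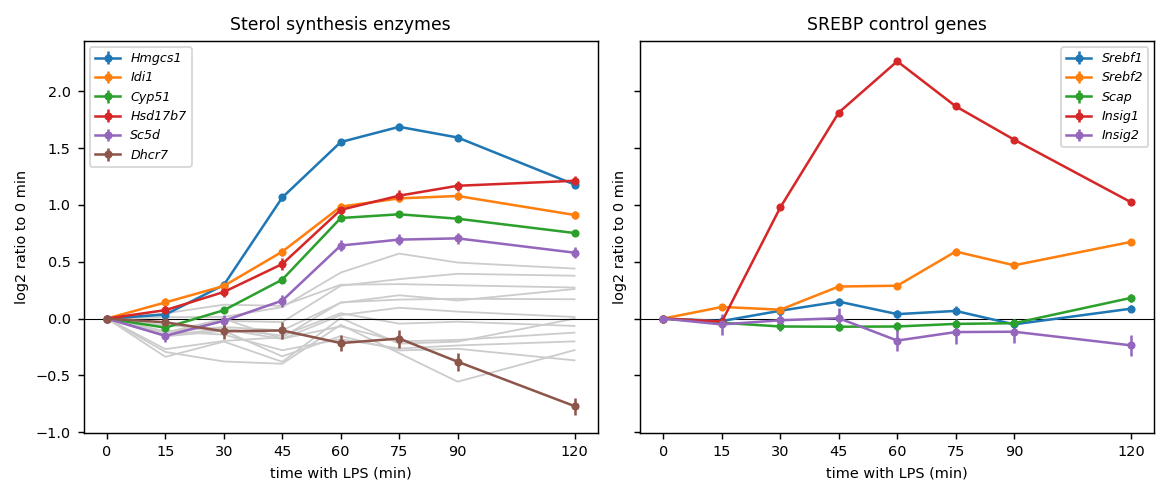
Log2 ratio to 0 min against time with LPS (min) of the 6 sterol synthesis enzymes called at any time (left, coloured; the other 12 in grey) and of the 5 SREBP control genes (right), with 95% counting intervals as bars. Insig1 peaks at 60 min (2.26) and Hmgcs1 at 75 min (1.69), while Hsd17b7 is highest at 120 min (1.21) and Dhcr7 lowest at 120 min (-0.77).

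Of the 5 SREBP control genes, Insig1 was called higher at every time from 30 min onward, and Srebf1, Srebf2, Scap and Insig2 were called at no time by this pair test, while with the dispersion trend of DESeq2 Srebf2 was called higher at 120 min. Insig1 (chr5:28071412-28078662) had 14199, 13941, 27994, 49914, 68247, 51851, 42317 and 28869 normalized counts. The 60 min library was the highest, the libraries on either side of it were lower, and 120 min stood close to 30 min. The ratio to 0 min was 4.81 (4.73 to 4.89) at 60 min, the highest of the 33 members at any time, and 2.03 (2.00 to 2.07) at 120 min. The 120 min library was at 0.423 (0.418 to 0.428) of the 60 min library. No slope was called for Insig1 over the 8 libraries (0.78 ± 0.45 log2 per hour; edgeR, adjusted p = 0.187), but without the 120 min library one was. Insig2 (chr1:121304353-121332662), the other INSIG gene, had 1824, 1760, 1806, 1828, 1595, 1680, 1684 and 1549 normalized counts. It fell slightly by slope, by 0.11 log2 per hour (SE 0.04; edgeR, adjusted p = 0.0477), a call that was lost whichever of the 8 libraries was left out. Per length, the level of Insig1 was 8.60 times that of Insig2 at 0 min (95% counting interval from 8.22), 47.3 times at 60 min (45.1 to 49.6) and 20.6 times at 120 min (19.7 to 21.6).

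Srebf2 (chr15:82147269-82205379) encodes SREBP2, the form that mainly drives the sterol genes. Its normalized counts were 16632, 17849, 17556, 20222, 20326, 25043, 23019 and 26562. All 7 LPS libraries were above 0 min, with ratios of 1.22 (1.20 to 1.25) at 60 min and 1.60 (1.57 to 1.63) at 120 min, and none was called except that at 120 min with the dispersion trend of DESeq2. Srebf2 rose by slope, by 0.36 ± 0.05 log2 per hour (edgeR, adjusted p = 0.000416). Srebf1 (chr11:60199084-60224186), which encodes the SREBP1 forms that drive fatty acid genes, had 11313, 11144, 11864, 12540, 11626, 11854, 10920 and 12019. Scap (chr9:110333288-110384949) had 11111, 10832, 10583, 10572, 10582, 10756, 10802 and 12608. Neither passed a test, and the highest of their libraries was at most 1.19 times the lowest.

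Stard4, which carries cholesterol between membranes, was called higher at 45, 75 and 90 min, and with the dispersion trend of DESeq2 also at 60 min. It had 2826 normalized counts at 0 min and 4925 at 90 min, its highest library, a ratio of 1.74 (1.66 to 1.83), and it rose by slope (0.38 ± 0.12 log2 per hour; edgeR, adjusted p = 0.0284). That slope was lost without the 0, 15, 30 or 90 min library, with total counts as the scale, with or without Rn45s, and with the 0, 30, 60 and 120 min libraries alone. Soat1, which esterifies cholesterol for storage, passed neither test, and its libraries ranged from 13439 to 15270.

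Among the LXR and efflux genes, the exporters moved in opposite directions. Abca1 (chr4:53030789-53159988), which loads cholesterol onto apolipoprotein A-I, had 2248, 2509, 2721, 3417, 3960, 4547, 6028 and 8691 normalized counts. Every library was higher than the one before. The ratio to 0 min was 1.76 (1.68 to 1.85) at 60 min and 3.87 (3.70 to 4.04) at 120 min, and the 120 min library was at 2.19 times the 60 min library (2.12 to 2.27). Its call at 60 min was lost with total counts as the scale, with or without Rn45s, and its calls at 120 min stood under every alternative run.

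Abcg1 (chr17:31057694-31117984), which passes cholesterol on to high-density lipoprotein, had 14524, 14772, 13493, 12151, 10417, 8335, 6998 and 5193. Every library after 15 min was lower than the one before. The ratio to 0 min was 0.717 (0.701 to 0.734) at 60 min, where it was not called, and 0.357 (0.347 to 0.368) at 120 min. Abca1 rose by 0.99 ± 0.05 and Abcg1 fell by 0.81 (SE 0.07) log2 per hour (edgeR, adjusted p = 2.27e-05 and 8.62e-05). The normalized count of Abcg1 per 1000 unique windows was 2515 at 0 min and 899 at 120 min, and that of Abca1 was 220 and 852. Per length, the level of Abcg1 was thus 11.4 times that of Abca1 at 0 min (11.0 to 11.9), 4.65 times at 60 min (4.49 to 4.81) and 1.06 times at 120 min (1.02 to 1.09). With the longest annotated transcripts as lengths these ratios were 11.4, 4.63 and 1.05. The ratios between genes, here and for the INSIG pair, were chosen after the values were seen.

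Mylip (chr13:45389742-45411940), the ubiquitin ligase gene, had a course of its own. Its normalized counts were 2967, 3272, 3526, 1927, 1531, 1986, 2377 and 2386, with the lowest at 60 min. The 15 and 30 min libraries were above 0 min, and the 5 later ones were below it. Mylip was called lower at 60 min only, at 0.516 (0.487 to 0.547) of the 0 min value, and the 120 min library was at 1.56 times the 60 min library (1.47 to 1.65). No slope was called (edgeR, adjusted p = 0.199). Nr1h2 (chr7:44549616-44553968) had 3806, 3683, 3587, 3628, 3818, 3960, 3847 and 4116 and passed neither test. Nr1h3 (chr2:91184061-91202829) had 960, 868, 840, 799, 776, 780, 744 and 704, all 7 LPS libraries below 0 min. Its ratio was 0.734 (0.671 to 0.802) at 120 min, not called, and it fell by slope by 0.20 log2 per hour (SE 0.04; edgeR, adjusted p = 0.00507). That slope was lost with the 0, 30, 60 and 120 min libraries alone.

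**Figure D4:**
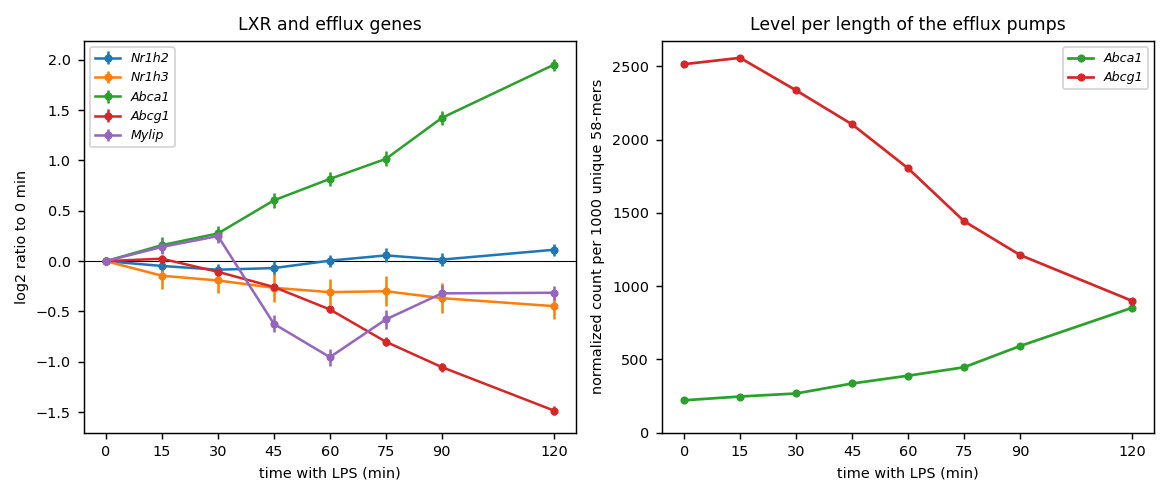
Left, log2 ratio to 0 min of the 5 LXR and efflux genes against time with LPS (min), with 95% counting intervals as bars. Right, normalized count per 1000 unique 58-base windows of Abca1 and Abcg1, which start at 220 and 2515 and end at 852 and 899.

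The 3 genes of fatty acid synthesis went different ways. Fasn (chr11:120805958-120825166), fatty acid synthase, had normalized counts of 37715, 45122, 48231, 57995, 56084, 65693, 60237 and 73533, all LPS libraries above 0 min. It was called higher at 75 and 120 min, with ratios of 1.74 (1.72 to 1.76) and 1.95 (1.93 to 1.97). Scd2 (chr19:44293676-44306864), a desaturase gene, had 103460, 98864, 94859, 85857, 84036, 73273, 64503 and 57863. Each Scd2 library was lower than the one before, and it was called lower at 120 min, at 0.559 (0.554 to 0.565) of the 0 min value. By slope Fasn rose by 0.44 ± 0.06 and Scd2 fell by 0.44 (SE 0.03) log2 per hour (edgeR, adjusted p = 0.000477 and 7.67e-05). The call of Fasn at 120 min was lost with total counts as the scale. Scd1, the other desaturase gene, ranged from 4686 to 5799 and passed neither test.

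**Figure D5:**
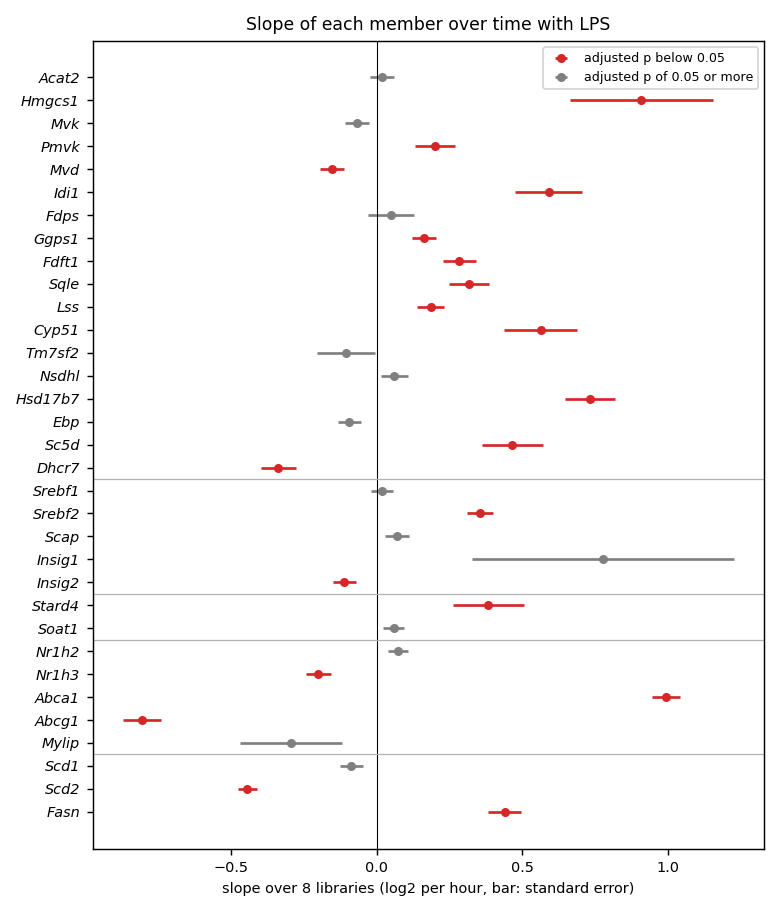
Slope of each member over the 8 libraries (log2 per hour, bars are standard errors), grouped by role from top to bottom, in red where the adjusted p is below 0.05. The highest slopes called are those of Abca1 (0.99) and Hmgcs1 (0.91) and the lowest that of Abcg1 (-0.81), while Insig1 has a high slope with a wide error (0.78 ± 0.45).

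Other genes of these pathways were listed by role, and for those of sterol synthesis and uptake no count over the list is given. One of them, Sc4mol, a sterol methyl oxidase gene, was called higher at 60 min and at 120 min (13802 normalized counts at 0 min and 25791 at 120 min, ratio 1.87, 1.83 to 1.91). Of 12 tested LXR targets and partners that are not members, 1 was called at 120 min, the small GTPase gene Arl4c, which was lower (364 and 192, ratio 0.527, 0.448 to 0.619). That is 8.33% of the list, near the 8.58% of all genes called lower at that time. None of 10 other genes of fatty acid synthesis was called at any time, where 23.1% of all genes were, and their log2 ratios at 120 min lay between -0.57 and 0.47.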

How the data were processed

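The values deposited by the authors are raw read counts for each gene symbol, in 1 column per time point. According to the methods, ribosomal RNA was removed, a directional library kit was used, Bowtie aligned the reads of 58 bases against RefSeq transcripts (mm10, GRCm38) and reads that matched more than 1 gene symbol were discarded. The Bowtie version is not given in the sources used here, nor is whether counting used the strand. The submitters' processing notes name CASAVA 1.8.2 and DESeq 1.10.1. No column was left unused. Total counts ranged from 100250892 to 159077286, so counting error is small, and intervals cover counting error only. The labels do not say whether the libraries came from separate cultures.

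Size factors were medians of ratios. The dispersion was fitted with the form used by DESeq by treating the 8 libraries as replicates (0.0287 + 0.853/mean), and library pairs were compared with the exact test of edgeR 4.0.16 in R 4.3.3. This gives no p-value for a condition, and none is printed. Slopes over time in minutes came from edgeR's quasi-likelihood test. Genes with a mean normalized count under 10 were left out, none of them a member. DESeq2 1.42.0 served as an alternative. Both tests were run on simulated counts with a lower dispersion than that fitted here, which does not give their error rate in these data. Ratios of 2 libraries have exact conditional binomial 95% intervals. Lengths for rpkm were the 58-base windows unique to a gene in GENCODE vM21 transcripts matched by RefSeq accession, and positions and promoters come from RefSeq (GRCm38.p6). Promoter ends matched a transcript in the gene's direction in 31 of 35 cases and in the other direction in 0. The promoters of Hmgcs1, Sc5d and Nsdhl and a promoter of Srebf1 matched in neither direction. Figures were drawn with matplotlib 3.10.9 in Python 3.11.15.

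The members, lists and tests were chosen with earlier results of these data known. Values in every library are given for members called at 60 or 120 min, for the LXR and SREBP control genes and for Hmgcs1 and Sqle. Other pathway genes are named where called at 120 min, except that some genes are not reported here. Spike-in transcripts and ribosome load were not used here.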

Additional observations from a re-analysis of the deposited data

How the results depend on the processing

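With Benjamini-Hochberg adjustment of the pair test, or with a log2 ratio limit of 1, 2 members were higher and 0 lower at 60 min (Hmgcs1 and Insig1) and 4 higher and 1 lower at 120 min (Hmgcs1, Hsd17b7, Insig1 and Abca1 higher, Abcg1 lower), with 1 enzyme of sterol synthesis higher at 60 min and 2 at 120 min. With total counts as the scale, 4 members and 2 enzymes were higher at 120 min, 9 members rose by slope, and the median log2 ratio of the enzymes was 0.045 at 60 min and 0.013 at 120 min. With total counts without Rn45s, 2 enzymes were higher at 120 min and the medians were 0.04 and 0.022. Both scales shift the log2 ratios of all genes alike, so the distance of the enzymes from the median of all genes is unchanged. With the 0, 30, 60 and 120 min libraries alone, 4 members rose by slope and 12 of 20 slopes were lost, with 4 libraries in the fit. Leaving out each library in turn, 11 to 14 members rose and 4 to 6 fell. TMM factors, DESeq2, no filter on low counts, the rank of time and the Rn45s share as a covariate kept every count within 1.5 times, and no called slope changed sign under any alternative. Over all genes, 1148 were higher and 1044 lower at 120 min, against 635 and 1243 with total counts, 707 and 1430 without Rn45s, 625 and 523 with adjustment, 712 and 648 with a limit of 1, and 2057 and 1931 with the ratio limit alone. At 60 min 513 and 365 became 259 and 96 with adjustment, 1105 and 908 with the ratio limit alone, and 193 were lower with a limit of 1. Slopes of 2886 genes up and 2881 down became 1639 and 5121 with total counts without Rn45s and 1518 and 1059 with the 4 libraries. The cause of these shifts was not tested. With the longest transcript as the length, 14 of 33 rpkm values left their counting interval. A DR4 match with up to 3 in place of 2 mismatches, a limit chosen after the data were seen, was found for 9 members in place of 1. No paired analysis was possible because each time point has 1 library. Counting error is small at this depth, and the spread between cultures is unknown.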

Other observations

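Outside the members, 2 further genes of the LXR list had courses that the calls at 120 min do not show, and both were chosen here with their values in view. Apoe, the gene of the apolipoprotein E that macrophages secrete with cholesterol, had 296, 302, 452, 641, 520, 435, 395 and 360 normalized counts in the order of time. It was called higher at 45 and 60 min and had no slope (edgeR, adjusted p = 0.732). Rxrb, which encodes an RXR partner of LXR, had 4272 normalized counts at 0 min, 3391 at 60 min and 2723 at 120 min, and fell by 0.40 on the log2 scale per hour (SE 0.05; edgeR, adjusted p = 0.000308) with no call at any time. All 4 slopes called in that list of 12 tested genes were downward (Arl4c, Cyp27a1, Rxra and Rxrb), which is 33.3% of the list beside 23.7% of all genes that fell.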
